A study of Homo sapiens with 6 samples.

Results

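The S100 calcium-binding proteins were followed in A172 cells, a human glioblastoma line, given synthetic duplexes of the microRNA miR-324. The 9 members were taken by gene symbol: S100A16, S100A13, S100A11, S100A10, S100A6, S100A4, S100A3, S100A2 and S100B. Of these, 8 were listed in the deposited expression tables and S100B was listed in none, out of 20979 symbols listed in at least 1 library. The family was chosen by the low TPM of S100A16 with the 5p duplex against control, so its values in comparisons with that duplex are given as a description with no test.

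The groups were cells with the miR-324-5p duplex (called 5p duplex), cells with the miR-324-3p.1 duplex (3p.1 duplex) and cells with control miRNA (control), at 2 libraries each. All 3 groups were the same line, grown in medium with serum, transfected with the same lipid reagent and harvested after 1 day. The labels do not say whether the 2 libraries of a group were separate cultures, so p-values cover only the spread between these samples, which may be technical. Which strand of a duplex acted in the cells was not measured, and the sequence of the transfected duplexes is not given in the labels.

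S100 proteins are small proteins with a pair of EF-hands, the helix-loop-helix folds that hold calcium, and most work as dimers. Calcium opens a surface on the dimer that grips partner proteins such as annexins, myosin heavy chains or p53, and several members are also released from cells and act on surface receptors. Most of the genes lie in a cluster on the long arm of chromosome 1, while S100B, the member used as an astrocyte marker, lies on chromosome 21. A microRNA lowers transcripts that pair with its seed, bases 2 to 8 from its 5′ end, mostly through sites in the 3′UTR.

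The sequences that bear on S100A16 are shown here because it was the member that stood lowest with the 5p duplex against control. The mature miR-324-5p and miR-324-3p sequences are those of RefSeq on GRCh38.p14 (chromosome 17, minus strand, bases 7223343 to 7223364 and 7223308 to 7223330), written 5′ to 3′ with the seed in capitals. Below each stands its match in the S100A16 3′UTR (GENCODE 29, GRCh38, minus strand), in 30 bases at chr1:153606902-153606931 and chr1:153607122-153607151, with the match in capitals.
miR-324-5p: cGCAUCCCcuagggcauuggug
S100A16, site for miR-324-5p: ctggtccctctGGGATGCtcattaaaacct
miR-324-3p: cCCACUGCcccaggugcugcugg
S100A16, site for miR-324-3p: tgctcttggtgGCAGTGGtagcagcaacag
The longest annotated S100A16 3′UTR has 648 bases. The match to miR-324-5p is a 7mer-m8, which pairs with bases 2 to 8 of the microRNA and has no A opposite base 1. It covers bases 614 to 620 of that 3′UTR (chr1:153606914-153606920) and ends 28 bases before the annotated transcript end. A further 2 bases downstream begins ATTAAA, a known variant of the polyadenylation hexamer. Of the 4 annotated S100A16 transcripts with a 3′UTR, 2 hold this match and 2 do not. Which of them A172 cells used was not measured here.

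Among the 8 listed members, S100A16 was the 1 with a 7mer or 8mer match to the miR-324-5p seed, counted on the sense strand of the longest 3′UTR. Of 11741 tested genes with an annotated 3′UTR, 14.6% held a 7mer or 8mer match to it, built on GGGATGC, and in 6.13% the best match was the 7mer-m8 form that S100A16 has. The median 3′UTR of those genes was 1383 bases. The other 7 listed members had 96 (S100A13) to 353 (S100A3) bases to search, and S100A16 the most, 648. These shares are thus not from genes of like 3′UTR length, and the part of length was not tested. S100A3 held a 6mer, GGATGC alone, and the other listed members had no such match in the 3′UTR searched. For miR-324-3p the start of the transfected strand is not known. The RefSeq start gives the word GCAGTGG and a start 1 base later gives GGCAGTG, and S100A16 holds both, overlapping in 1 place. These words were held as 7mer or 8mer matches by 32.1% and 30.9% of the same genes. A start 3 bases later gives GGGGCAG, and its 7mer-A1 form GGGCAGA was found in S100A13 (chr1:153618861-153618867, minus strand). That word was held in a 7mer or 8mer form by 28% of genes.

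Levels are given in TPM, a unit that corrects for transcript length, so that levels of different genes can be compared. S100A4, which binds the heavy chain of non-muscle myosin and is known from tumour cell migration, was the most abundant member, with 3541 to 4863 TPM over the 6 libraries. It ranked 10 of the 13400 genes that averaged at least 1 TPM. S100A6, which binds the calcyclin-binding protein CACYBP, followed with 2848 to 3231 TPM. S100A10, a member that has lost calcium binding and joins annexin A2 at membranes, lay at 2279 to 2712 TPM, and S100A11, a partner of annexin A1, at 1093 to 1448 TPM. The ranges of these 4 genes did not overlap, and together they held 90.2% to 94.9% of the TPM of the members.

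S100A16, a widely expressed member, came next by mean level, with 199 to 815 TPM. Its coefficient of variation over the 6 libraries was 46.9%, against 4.50% (S100A6) to 14% (S100A2) in the other 7. S100A13, which takes part in the release of the growth factor FGF1 from cells, had 208 to 274 TPM, a range that lies inside that of S100A16. S100A2, best known from epithelial cells and as a p53 partner, had 56.0 to 80.9 TPM. S100A3, a cysteine-rich member abundant in hair cuticle, had 45.4 to 56.1 TPM. The lowest S100A2 value and the highest S100A3 value touched, both being control libraries.

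S100B was not listed in any library and was taken as 0. GFAP, the other classical astrocyte marker, stood at 0.05 to 0.25 TPM, and AQP4, the astrocyte water channel, was listed in none. Of the 9 astroglial markers searched, only SOX9 (30.7 to 48.6 TPM) and GJA1 (42.6 to 53.1 TPM) averaged at least 1 TPM, and the summed level was 74.3 to 94.6 TPM. VIM and CD44, both high in mesenchymal glioma cells, stood at 4788 to 5910 and 708 to 929 TPM. Of the 7 mesenchymal glioma markers searched, 6 averaged at least 1 TPM. So did 2 of 8 neuronal markers (summed level 211 to 327 TPM) and 1 of 7 oligodendroglial markers. The same held for 3 of 9 myeloid or microglial and 3 of 7 epithelial markers, S100P among the latter. The astroglial, myeloid and epithelial lists themselves hold S100 genes, so they are not independent of the family. The S100 set was thus measured in a line with most of the mesenchymal markers searched, a smaller share of each other list and no listed S100B.

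**Figure D1:**
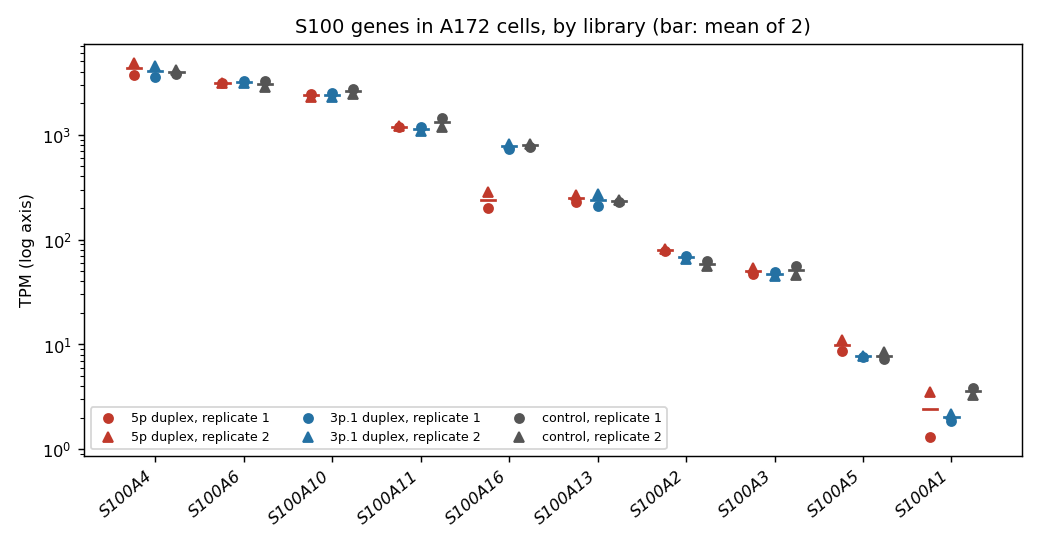
TPM of the 8 listed S100 members and of S100A5 and S100A1 in each library on a log axis, with circles for replicate 1, triangles for replicate 2 and a bar for the mean of 2. S100A16 stands at 199 and 283 TPM with the 5p duplex and at 732 to 815 TPM in the other 4 libraries, while the groups of the other members lie close together.

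With the 5p duplex, S100A16 was the member furthest from control by log2 fold change. S100A16 had 199 and 283 TPM with the 5p duplex, 732 and 813 TPM with the 3p.1 duplex and 770 and 815 TPM in control. Both 5p duplex libraries lay below the other 4, and those of the 3p.1 duplex overlapped control. The 5p duplex mean was 30.4% of the control mean (241 ± 59.6 against 793 ± 31.9 TPM, SD, n = 2 each), a log2 fold change of -1.73 (SE 0.17) on the log2(TPM + 1) scale. The difference of means was -552 TPM. Fewer cells with the transcript and less of it per cell cannot be told apart in these bulk libraries.

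Set against the other genes tested, S100A16 had the 57th lowest log2 fold change with the 5p duplex and the 4th lowest difference in TPM. Among the 720 genes whose best miR-324-5p match was a 7mer-m8 it was the 3rd lowest, where the median was -0.09 and the 5th percentile -0.67. Of the 330 genes with an 8mer, 2 lay below it. Of the 8802 genes without a match, 26 did. These ranks describe the value that brought the family to attention and carry no test.

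**Figure D2:**
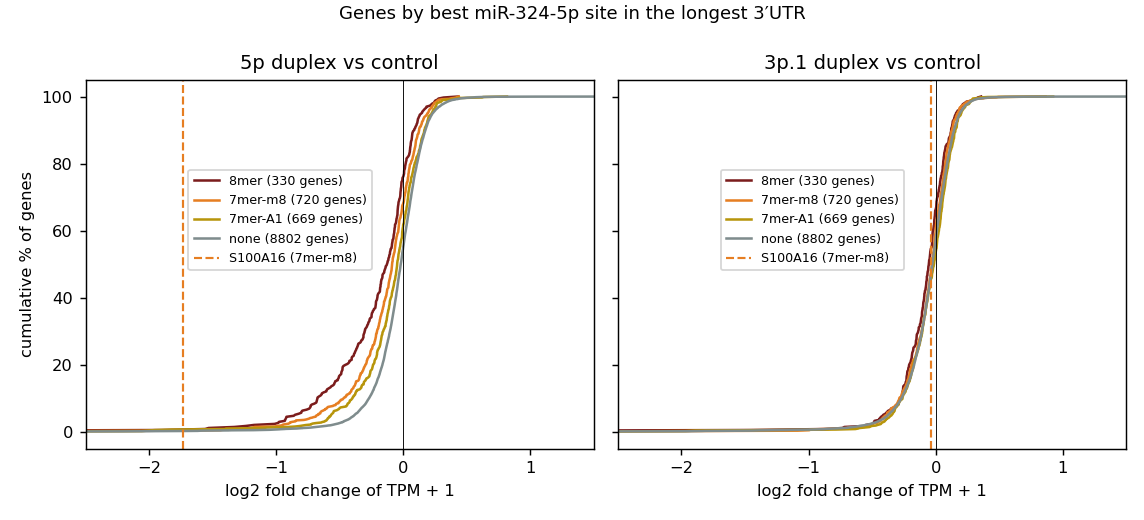
Cumulative share of genes (%) by log2 fold change of TPM + 1 with each duplex against control, split by the best miR-324-5p match in the longest 3′UTR; a few genes lie beyond the plotted range. The dashed line marks S100A16, at -1.73 with the 5p duplex, far left of its 7mer-m8 class (median -0.09), and at -0.04 with the 3p.1 duplex, inside it.

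The libraries differed in another respect beside the duplex. The median TPM of 35 listed interferon response genes was 11.4 and 7.32 with the 5p duplex, 7.95 and 8.69 with the 3p.1 duplex, and 44.6 and 136 in control. By limma, 4 of the 35 were called lower with the 5p duplex and none with the 3p.1 duplex, where 0.425% and 0.00746% of all genes were. All 35 had an unadjusted p under 0.05 in both. This list too was chosen with earlier results of these data known, so nothing is read from its counts. The median log2 fold changes were close, at -2.728 and -2.565, and between the 2 duplexes 0 of the 35 had an unadjusted p under 0.05. In the same libraries S100A16 stood at 199 and 283 TPM with the 5p duplex, 732 and 813 TPM with the 3p.1 duplex and 770 and 815 TPM in control. The part of the interferon difference in the S100A16 values, and in those of S100A2, which were lowest in control, was not tested. The number of genes listed per library was 18660 to 19070, and no read numbers can be had from TPM, so depth is unknown.

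With the 5p duplex, 1 of the 8 listed members, S100A16, was past the call threshold of an adjusted p under 0.05 in limma, where 0.463% of the 13400 genes were, 0.425% lower and 0.0373% higher. Nothing is read from that count, since this contrast chose the family. S100A16 was past that threshold without control replicate 1 (log2 -1.78) or 5p duplex replicate 2 (-1.99). It was not past it without 5p duplex replicate 1 (-1.48), control replicate 2 (-1.69) or either 3p.1 duplex library (-1.73 in both).

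None of the other 7 listed members was called with the 5p duplex by limma, and 1, S100A2, had an unadjusted p under 0.05. Their log2 fold changes ran from -0.15 (S100A11) to 0.43 (S100A2), with a median of 0.04, against -0.03 over all genes tested. Among these 7, the 5p duplex and control libraries did not overlap in 2 genes, S100A10 lower and S100A2 higher, where 34.8% of all genes did not overlap, 22.1% lower and 12.7% higher. The members' count is near that background.

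S100A2 had 78.3 and 80.9 TPM with the 5p duplex, 70.5 and 64.7 TPM with the 3p.1 duplex and 62.1 and 56.0 TPM in control. The 3 groups lay one above the other without overlap. With the 5p duplex the log2 fold change was 0.43 (SE 0.10, adjusted p = 0.172 by limma, 95% interval 0.19 to 0.66), so it did not pass the threshold over all genes. With the 3p.1 duplex against control it was 0.19 (SE 0.10, adjusted p = 0.784), and with the 5p against the 3p.1 duplex 0.23 (SE 0.10, adjusted p = 0.533). Epithelial markers were low throughout, with sums of 5.66 to 5.96 TPM with the 5p duplex, 4.31 to 6.71 TPM with the 3p.1 duplex and 4.52 to 5.18 TPM in control.

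S100A10 had 2428 and 2308 TPM with the 5p duplex, 2480 and 2279 TPM with the 3p.1 duplex and 2712 and 2462 TPM in control. Both control libraries lay above the 5p duplex libraries, by a margin smaller than the distance between the controls. S100A11 had 1175 and 1201 TPM with the 5p duplex, 1194 and 1093 TPM with the 3p.1 duplex and 1448 and 1192 TPM in control. Only control replicate 1 stood apart there. Their log2 fold changes with the 5p duplex were -0.13 and -0.15 (SE 0.10 and 0.12, adjusted p = 0.804 and 0.807 by limma).

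S100A4 had 3704 and 4863 TPM with the 5p duplex, 3541 and 4538 TPM with the 3p.1 duplex and 3794 and 4111 TPM in control. The replicates of a duplex differed by more than the group means did. S100A6 had 3081 and 3139 TPM with the 5p duplex, 3220 and 3142 TPM with the 3p.1 duplex and 3231 and 2848 TPM in control, and all 4 duplex values fell within the control pair. The 95% intervals of the log2 fold change with the 5p duplex were -0.32 to 0.53 for S100A4 and -0.21 to 0.28 for S100A6.

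S100A13 had 230 and 264 TPM with the 5p duplex, 208 and 274 TPM with the 3p.1 duplex and 229 and 239 TPM in control. S100A3 had 46.5 and 54.2 TPM with the 5p duplex, 49.1 and 45.4 TPM with the 3p.1 duplex and 56.1 and 46.1 TPM in control. Groups overlapped in both genes. The intervals with the 5p duplex were -0.28 to 0.43 for S100A13 and -0.33 to 0.30 for S100A3, so each would allow a change of moderate size that 2 libraries a group could not show.

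**Figure D3:**
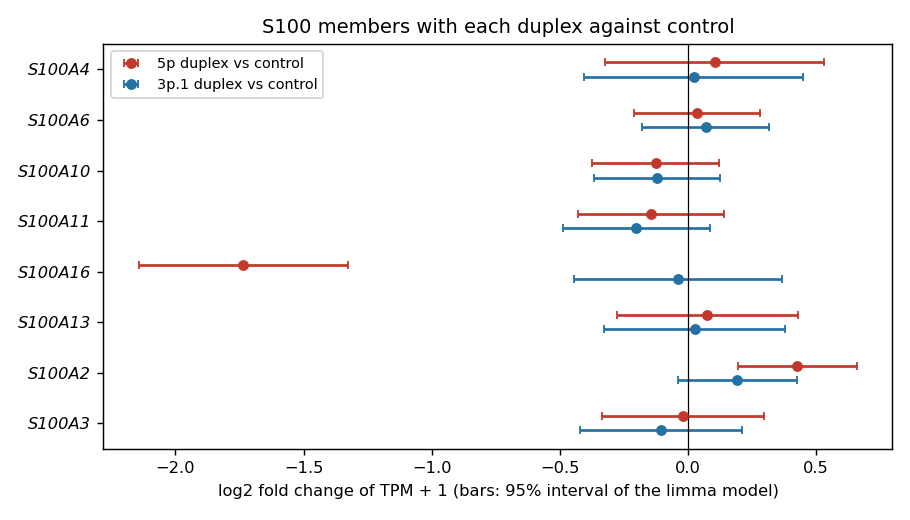
Log2 fold change of TPM + 1 for the 8 listed members, 5p duplex against control in red and 3p.1 duplex against control in blue, with 95% intervals of the limma model. The S100A16 interval with the 5p duplex runs from -2.14 to -1.33, apart from all others, and S100A2 stands at 0.43 (adjusted p = 0.172).

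The second comparison, 3p.1 duplex against control, used the same control libraries. None of the 8 listed members was called by limma, and none had an unadjusted p under 0.05. Over all genes 0.0149% were called, 0.00746% in each direction. S100A16, which holds the overlapping GCAGTGG and GGCAGTG matches shown above, stood at log2 -0.04 (95% interval -0.44 to 0.37, adjusted p = 0.989), and its 3p.1 duplex mean was 97.5% of the control mean. The other 7 ran from -0.20 (S100A11) to 0.19 (S100A2), with a median of 0.02, against -0.03 over all genes. The libraries did not overlap in 1 of these 7, S100A2, which was higher, where 36.3% of all genes did not overlap, 24.1% lower and 12.1% higher. S100A13, with the GGGCAGA match, stood at 0.03 (SE 0.15, adjusted p = 0.991).

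The third comparison set the 5p duplex directly against the 3p.1 duplex and used no control library for its means. S100A16 was at 241 ± 59.6 TPM with the 5p duplex and 773 ± 56.8 TPM with the 3p.1 duplex (SD, n = 2 each), a log2 fold change of -1.70 (SE 0.17), again given as a description. In this comparison 1 of the 330 genes with an 8mer lay below S100A16, as did 2 of the 669 with a 7mer-A1. Of the 8802 genes without a match to miR-324-5p, 0 did. S100A16 was the lowest of the 720 genes with a 7mer-m8 match and the 38th lowest of all genes. It was the 1 of 8 listed members past the threshold, where 0.433% of genes were, 0.351% lower and 0.0821% higher, and it was past it in 1 of the 6 fits that left out a library, that without 5p duplex replicate 2 (-1.95). Nothing is read from this count either, since the family was chosen on the same 5p duplex libraries. None of the other 7 was called by limma, and S100A2 was the 1 with an unadjusted p under 0.05. The libraries did not overlap for S100A6, lower, and S100A2, higher, where 40.4% of all genes did not overlap, 19.4% lower and 21% higher.

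As a share of the summed TPM of the members, S100A16 made up 1.82% and 2.32% with the 5p duplex, 6.37% and 6.64% with the 3p.1 duplex and 6.26% and 6.93% in control. The sum of the other 7 was 10743 and 11910 TPM with the 5p duplex, 10762 and 11436 TPM with the 3p.1 duplex and 11532 and 10955 TPM in control, so the groups overlapped. The members together held 1.09% to 1.23% of the TPM of a library.

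Replicate number went with the level of some members. In all 3 groups the library numbered 2 had more S100A4, S100A13 and S100A16 than the library numbered 1, and less S100A10. The labels tie the number to no batch, and its part in these levels was not tested.

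Another 6 symbols of the family were listed, all at lower levels than the 8. S100A5, a member of the cluster known from olfactory neurons, had 8.72 and 10.9 TPM with the 5p duplex, 7.65 and 7.76 TPM with the 3p.1 duplex and 7.20 and 8.43 TPM in control (5p duplex against control, log2 0.29, SE 0.15, adjusted p = 0.631 by limma). S100A1, the main member of heart muscle, had 1.31 and 3.56 TPM with the 5p duplex, 1.86 and 2.18 TPM with the 3p.1 duplex and 3.87 and 3.27 TPM in control. S100A1 overlaps S100A13 on the other strand and S100A3 lies within S100A4 on the same strand, and how shared reads were assigned is not given in the sources used here, so these values are uncertain. S100P averaged 1.07 TPM over the libraries, with 0.14 to 2.98 TPM. S100A14 and S100Z stayed under 1 TPM in every library, and S100G was listed in 1 control library at 0.17 TPM.

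Of the 15 family genes named here, 11 lie on chromosome 1 in GENCODE 29 (GRCh38). S100A10 (151982915 to 151994390) and S100A11 lie apart from the 9 that run from S100A6 to S100A1. S100A16 (ENSG00000188643.10, 153606886 to 153613145, minus strand) is 1109 bases from S100A14 and 38995 bases from S100A2. Another 20 tested protein-coding genes, not S100 genes, lie among these or within 500000 bases of them. None was called with the 5p duplex by limma, where 0.463% of all genes were, and 2 had an unadjusted p under 0.05. At that share nothing is read from the count. The log2 fold changes of the 20 ran from -0.54 (CRTC2, a coactivator of CREB) to 0.20 (PRR9), with a median of 0.02. S100A16 stood outside that range, and the nearest tested S100 genes on either side, S100A2 and S100A13, stood at 0.43 and 0.08.

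**Figure D4:**
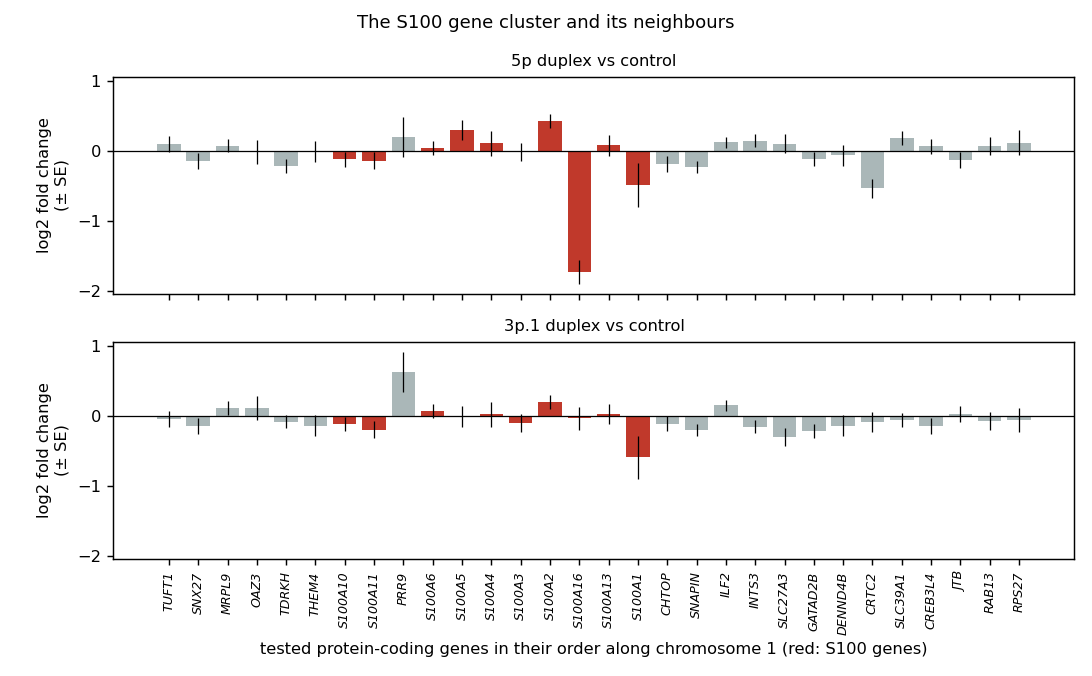
Log2 fold change (bars, ± SE) of the tested protein-coding genes of the S100 region in their order along chromosome 1, S100 genes in red, with the 5p duplex against control above and the 3p.1 duplex against control below. S100A16 is the 1 long bar, at -1.73, in the upper panel, with no such bar in the lower.

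Genes that work with S100 proteins were taken as lists chosen with earlier results of these data known. Over all genes 0.463%, 0.0149% and 0.433% were called in the 3 comparisons, so nothing is read from a short list with none called. Of 12 annexins, 10 were tested and none was called in any of the 3 comparisons by limma, with no unadjusted p under 0.05. ANXA2, the partner of S100A10, had 4329 and 4177 TPM with the 5p duplex, 3786 and 3592 TPM with the 3p.1 duplex and 3717 and 3612 TPM in control (5p duplex against control, log2 0.21, SE 0.09, adjusted p = 0.576). Both 5p duplex libraries lay above the other 4.

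Of 34 other reported S100 partners and receptors, 29 were tested. With the 5p duplex 1 was called higher and none lower, where 0.0373% and 0.425% of all genes were. Nothing is read from that count, since the list was chosen with earlier results of these data known. The median log2 fold change of the 29 was 0.14, against -0.03 over all genes. The called gene was STK38L, an NDR-family kinase whose relative is activated by S100B. It had 27.7 and 23.5 TPM with the 5p duplex, 25.0 and 24.0 TPM with the 3p.1 duplex and 12.02 and 11.70 TPM in control. Both duplexes thus stood above control, at log2 1.04 (SE 0.11, adjusted p = 0.027 by limma) and 0.99 (SE 0.11, adjusted p = 0.117). Between the duplexes it was 0.06 (SE 0.11, adjusted p = 0.944). Control also stood apart from both duplexes in the interferon response genes, and the part of that difference in the STK38L values was not tested. The call with the 5p duplex was lost in each of the 6 fits that left out 1 library (0.93 to 1.16, adjusted p = 0.0511 to 0.152). In the 3p.1 comparison none of the 29 was called and 2 had an unadjusted p under 0.05, STK38L and the galectin gene LGALS3 (log2 -0.29, adjusted p = 0.66).

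Of 9 genes of plasminogen activation, a process that S100A10 with ANXA2 promotes at the cell surface, 7 were tested and none was called by limma. Unadjusted p was under 0.05 for 2, PLAU and PLGRKT, both with the 5p against the 3p.1 duplex and with the 3p.1 duplex against control. With the 5p duplex against control it was so for 0. PLAU, the urokinase gene, had 11.9 and 14.9 TPM with the 5p duplex, 7.11 and 8.63 TPM with the 3p.1 duplex and 11.02 and 12.77 TPM in control (5p against 3p.1 duplex, log2 0.70, SE 0.16, adjusted p = 0.219). The 3p.1 duplex libraries were the low ones (3p.1 duplex against control, log2 -0.54, SE 0.16, adjusted p = 0.546).

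Of 38 EF-hand proteins outside the family, 34 were tested, and none was called by limma. Unadjusted p was under 0.05 for 4 with the 5p duplex against control. ACTN4, an actin crosslinker, stood at 346 and 391 TPM with the 5p duplex and at 491 and 513 TPM in control (log2 -0.45, SE 0.09, adjusted p = 0.139 by limma). The list had a median of -0.04, near that of all genes.

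The genes whose level followed S100A16 most closely over the 6 libraries, among 10616 genes that averaged 5 TPM or more, were PDGFA, CANT1, FNDC4, BASP1 and ZNF689. Pearson's r of log2(TPM + 1) was 0.998, 0.997, 0.996, 0.995 and 0.993, given as a description of libraries that share 3 treatments. CANT1, a calcium-activated nucleotidase, had 25.8 and 31.8 TPM with the 5p duplex, 55.7 and 64.6 TPM with the 3p.1 duplex and 58.3 and 62.2 TPM in control. PDGFA, a growth factor subunit, had 14.6 and 15.8 TPM with the 5p duplex, 22.2 and 23.1 TPM with the 3p.1 duplex and 22.3 and 23.0 TPM in control. The correlation ignores size: ZNF689, a zinc finger gene, had 14.7 and 14.9 TPM with the 5p duplex and 16.6 and 16.7 TPM in control. PDGFA and BASP1 held a 7mer-A1 match to miR-324-5p, and the other 3 had none.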

How the data were processed

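RNA enriched with oligo dT was sequenced as stranded paired reads from DNA nanoballs, per the labels' protocols. The authors deposited 1 table of gene symbols with TPM per library, and RSEM and GRCh38 are named per the submitters' processing notes. Version, aligner and gene annotation: not given in the sources used here. A symbol not listed was taken as 0, and the 21 to 23 repeated symbols per library were summed. Values were analysed as log2(TPM + 1), which understates changes of low genes, over the 13400 genes that averaged 1 TPM or more; of the 9 members, 8 passed and S100B did not. A model of 3 group means was fitted to the 6 libraries with limma 3.58.1 (R 4.3.3; variance trend, 3 residual and 3.38 prior degrees of freedom), two-sided, with Benjamini-Hochberg adjustment over all genes and calls at 0.05. With 2 libraries a group, no exact test of 1 gene was used. The procedure was tested on data simulated with the same spread in every gene and independent libraries. There 100% of 200 changed genes were called, with 10 false calls. The real libraries differ from that setting, so these rates do not carry over to them.

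3′UTRs came from GENCODE 29 and microRNAs from RefSeq. Named genes were the members, other listed S100 symbols, the 5 genes best correlated with S100A16, and called or lowest-p genes of each list, of which 1 is not reported here; CRTC2 and PRR9 were named after their values were seen. Members and lists were chosen with earlier results of these data known.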

Additional observations from a re-analysis of the deposited data

How the results depend on the processing

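In 12 alternatives (pseudocount, filter, quantile normalization, 2 groups only, replicate block, no variance trend, and each library left out), 16 tested fold changes of members were followed. Direction and side of the threshold were kept in 175 of 192 cases, and the direction turned in 17; none of the 16 crossed the threshold. The fold changes that turned ran from -0.106 to 0.104 in the main model and from -0.173 to 0.120 once turned. With quantile normalization S100A6, S100A4 and S100A3 stood at -0.014, -0.015 and 0.025 (5p duplex against control) and S100A4 at -0.113 (3p.1 duplex against control). Leaving out 1 library gave, for the 5p duplex against control, -0.022 to 0.173 for S100A13, -0.055 to 0.127 for S100A6, -0.093 to 0.300 for S100A4 and -0.157 to 0.120 for S100A3. For the 3p.1 duplex against control it gave -0.113 to 0.037 for S100A16, -0.173 to 0.226 for S100A13, -0.023 to 0.159 for S100A6, -0.157 to 0.200 for S100A4 and -0.244 to 0.033 for S100A3.

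S100A16 ran from -1.99 to -1.48 (5p duplex against control) and from -1.95 to -1.44 (against the 3p.1 duplex), and was not past the threshold in 6 and 8 of the 12 alternatives. The count of members past the threshold, 1 in each of these comparisons, was 0 with no filter and 0 with only the 2 groups compared, in both, and 0 with no variance trend against the 3p.1 duplex; it was 0 to 1 when 1 library was left out. The cause was not tested. With the replicate block the count stayed at 1, 0 and 1 in the 3 comparisons. Same-numbered libraries deviated together (correlations of 0.265 to 0.383 across genes), but the labels tie the number to nothing. The block changed the genes called from 62 to 367, from 2 to 30 and from 58 to 278, and STK38L with the 3p.1 duplex to adjusted p = 0.0363. The count with no filter was 9, 0 and 5 genes. With 2 libraries a group and unknown depth, differences like that of S100A2 were not resolved.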
